A study of Mus musculus with 12 samples.

Results

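The immediate early transcription factors followed here were 10 genes, Fos, Fosb, Fosl2, Jun, Junb, Jund, Egr1, Egr3, Nr4a1 and Npas4. They were found by matching the Entrez gene identifiers of the count files to mouse symbols, and they are 10 of the 27179 genes listed in each of the 12 libraries. All 10 passed the filter on low counts that left 14185 genes for testing. The RNA came from primary hippocampal neurons of newborn (P0 or P1) mice, labelled C57BL/6 while the methods name both C57BL/6 and FVB for such cultures, kept in culture for 17 or 18 days on Transwell membranes, porous filters on which cell bodies stay on the upper face while their processes grow through the pores. Cell bodies (somas) were scraped from the membrane, and the processes (neurites) were lysed from it, so that each fraction gave its own polyA-selected library. Ctrl cultures received DMSO, the solvent. MG132 cultures received MG132, a peptide aldehyde that blocks the proteasome, at 10 μM for 7 h. Somas and neurites of each treatment made up the 4 groups, each of 3 libraries numbered replicates 1 to 3, and no group carried a genetic change. A single dose and time were measured, so an earlier peak or a later decline was not analysed here.

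Immediate early genes are transcribed within minutes of a stimulus without new protein synthesis, and their mRNAs are short-lived. FOS and JUN proteins pair through leucine zippers to form AP-1, EGR proteins bind DNA through zinc fingers, Nr4a1 encodes an orphan nuclear receptor, and Npas4 encodes a basic helix-loop-helix PAS factor that in neurons answers mainly to calcium entry. In hippocampal neurons they are widely used as markers of recent synaptic activity, and several, among them Fos, Jun and Egr1, are also switched on by cellular stress. Many of the encoded proteins are themselves degraded by the proteasome, but the libraries measure mRNA only.

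Promoter sequences of 5 members are shown because the short motifs they hold differ from gene to gene. RefSeq promoters of GRCm38.p6 were found for 8 of the 10 genes, and the 250 bases before an annotated transcription start are given 5′ to 3′ on the strand of the gene. These are Fos (chr12:85473640-85473889, plus strand), Fosl2 (chr5:32136222-32136471, plus strand), Jun (chr4:95052223-95052472, minus strand), Nr4a1 (chr15:101266596-101266845, plus strand) and Npas4 (chr19:4989972-4990221, minus strand). The windows of Nr4a1 and Npas4 lie inside the gene spans given below, so the start used for them is an internal one. Capitals mark matches, on either strand, to the motifs searched.
Fos: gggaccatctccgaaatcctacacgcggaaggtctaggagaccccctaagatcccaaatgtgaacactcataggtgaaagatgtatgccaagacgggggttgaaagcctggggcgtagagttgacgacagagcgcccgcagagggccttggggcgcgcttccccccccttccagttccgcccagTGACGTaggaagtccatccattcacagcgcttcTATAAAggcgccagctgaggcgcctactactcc
Fosl2: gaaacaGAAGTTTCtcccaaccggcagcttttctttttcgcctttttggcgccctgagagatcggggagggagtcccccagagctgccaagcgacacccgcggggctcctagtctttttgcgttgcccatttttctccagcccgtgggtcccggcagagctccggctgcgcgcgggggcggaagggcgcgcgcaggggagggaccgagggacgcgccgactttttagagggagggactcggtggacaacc
Jun: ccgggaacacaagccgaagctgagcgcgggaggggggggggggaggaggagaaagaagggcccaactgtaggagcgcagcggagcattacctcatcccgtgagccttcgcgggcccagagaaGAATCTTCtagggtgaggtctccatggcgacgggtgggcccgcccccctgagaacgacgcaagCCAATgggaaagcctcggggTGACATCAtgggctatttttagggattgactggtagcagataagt
Nr4a1: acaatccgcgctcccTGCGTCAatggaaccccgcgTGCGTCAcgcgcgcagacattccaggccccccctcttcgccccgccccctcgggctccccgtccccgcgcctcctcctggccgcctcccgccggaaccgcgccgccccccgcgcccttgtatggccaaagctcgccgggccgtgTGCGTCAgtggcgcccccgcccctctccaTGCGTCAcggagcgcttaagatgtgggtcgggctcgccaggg
Npas4: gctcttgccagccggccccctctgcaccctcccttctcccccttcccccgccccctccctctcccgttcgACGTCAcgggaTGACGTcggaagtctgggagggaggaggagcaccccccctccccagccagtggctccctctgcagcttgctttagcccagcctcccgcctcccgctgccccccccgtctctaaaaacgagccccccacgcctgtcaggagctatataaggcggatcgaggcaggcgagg

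Among the genes printed, the Fos window held TGACGT, the core of a cAMP response element (CRE), at position −66 from the start and a TATAAA box at −33. Npas4 held the CRE core at 2 positions, −180 and −169. Jun held TGACATCA, known as the Jun/ATF site, at −45, together with CCAAT and the heat shock element core GAANNTTC. Fosl2 held only GAANNTTC among the motifs searched, and Nr4a1 held TGCGTCA at 4 positions from −235 to −42. Of the genes whose promoters were found but are not printed, Fosb held TGCGTCA at −60 and Junb held CCAAT at −36. Jund held none of the motifs searched. Of 32851 promoters of the same length, 6.47% held TGACGT, 2.93% TGACATCA, 1.75% TGCGTCA, 6.69% GAANNTTC, 12.4% TATAAA and 33.9% CCAAT. The AP-1 site TGANTCA (6.75% of promoters) and the CArG box (1.47%) were also searched and had no match in the windows of the 8 genes. TGCGTCA was added to the search after the sequences had been read. TGACGT can overlap its own reverse complement in a palindrome, which would count on both strands. A match is a string of letters and was not tested as a binding site, and a missing match says nothing about a factor.

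Total counts ran from 4247610 to 22166347 per library, and levels are given as CPM, the count scaled to the size of its library, after TMM scaling, a correction for differences in RNA composition. No library pair of the 66 had identical values. The 8 neuron markers, among them Rbfox3, Map2 and Snap25, were detected in every group, with summed levels of 849 to 1820 CPM over all libraries. Glial markers were detected too. The summed levels of 8 astrocyte markers were 4828 to 5978 CPM in Ctrl somas, 20563 to 25761 CPM in Ctrl neurites, 2514 to 3309 CPM in MG132 somas and 9579 to 19691 CPM in MG132 neurites. The higher sums in neurites were not shared by all 8 markers. In Ctrl neurites against somas Gfap (log2 ratio 3.18) and Slc1a2 (1.01) were called higher, Gja1 was called lower (−1.08), and the median of the 8 was −0.0083. The fractions labelled as neuronal therefore contained RNA of several cell types, and in such bulk samples fewer cells of a type and less RNA per cell cannot be told apart.

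Compared per kilobase of exon, Jun was the most abundant of the 10 mRNAs in Ctrl somas, at 16.1 ± 0.222 CPM per kb (SD, n = 3), and its lowest library lay above the highest of Jund, the next gene, at 12.2 ± 0.476 CPM per kb. Fos followed at 10.0 ± 4.32 CPM per kb, then Junb (5.69), Egr1 (5.07), Fosl2 (3.91), Nr4a1 (1.94), Npas4 (1.85), Egr3 (0.427) and Fosb (0.414), and from Jund downwards each gene overlapped its neighbour. In Ctrl neurites Jund (14.8 ± 2.41) and Jun (12.5 ± 2.91 CPM per kb) led and overlapped, and the order below them was the same as in Ctrl somas. In MG132 somas Jun stood at 67.6 ± 7.85 CPM per kb, with every library above those of the other 9 genes. Fos (20.0), Fosl2 (17.5), Egr1 (17.5) and Jund (15.5) came next and overlapped as neighbours. In MG132 neurites Jun was again first at 47.1 ± 7.71 CPM per kb, followed by Fosl2 (15.8), Fos (15.1), Egr1 (14.6) and Jund (12.9), which again overlapped as neighbours. Nr4a1, Npas4, Fosb and Egr3 were the lowest 4 genes in every group. The plot of CPM by library shows these values for each gene before scaling by length. The order between genes depends on the length used for each, which here joined all annotated exons of a gene.

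**Figure D1:**
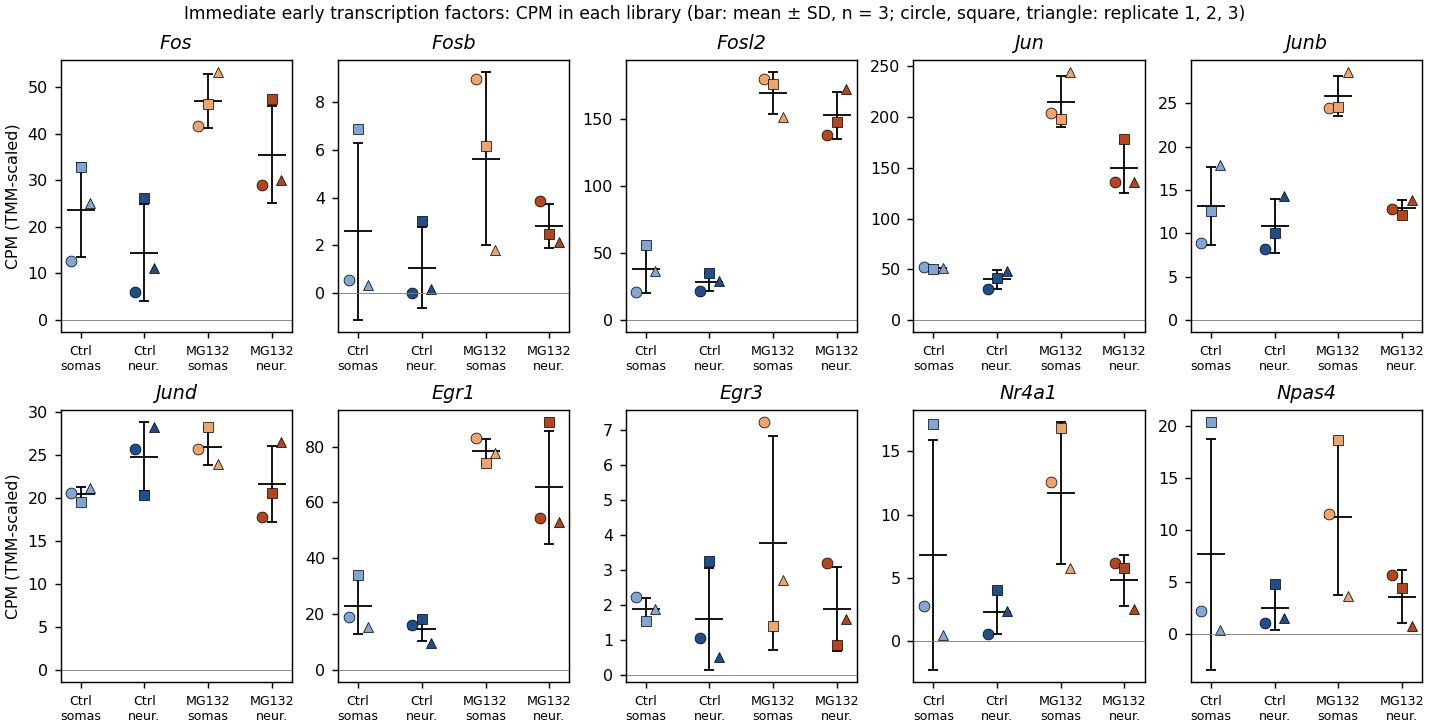
Level of each of the 10 genes in CPM (TMM-scaled; vertical axis, linear, own range per gene) in the 3 libraries of each treatment and fraction (horizontal axis). Symbols are replicates 1 (circle), 2 (square) and 3 (triangle), and bars are mean ± SD, n = 3. Fos, Fosl2, Jun and Egr1 are separated by treatment in both fractions, Fos by the least. Npas4, Nr4a1 and Fosb have a Ctrl somas replicate 2 far above replicates 1 and 3.

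MG132 was compared with Ctrl in each fraction to ask which of these mRNAs respond to inhibition of the proteasome. Fosl2, Jun and Egr1 rose in somas and in neurites, by 3.45- to 5.31-fold. No member fell in either fraction. Fos moved upward in both fractions, and Junb in somas, without passing the threshold in the fit without pairing. Once the replicate number was taken into account, Fos passed in both fractions and Junb in somas. Jund, Egr3, Nr4a1, Npas4 and Fosb did not pass in any comparison. A gene was called when its Benjamini-Hochberg adjusted p over all tested genes was under 0.01 in edgeR's quasi-likelihood test and it changed by more than 1.7-fold. Values are from the fit without pairing unless another fit is named.

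In somas 3 of 10 members were called higher, against 9.00% of all tested genes, and 0 lower, against 5.58%. With the replicate number as a block, 5 of 10 were called higher, against 11.7% of all tested genes. In neurites 3 of 10 were called higher, against 9.25%, and 0 lower, against 5.44%. The blocked fit called 4 of 10 higher in neurites, against 11.8%. The median log2 fold change of the members was 1.01 in somas, where that of all tested genes was −0.07, and 1.10 in neurites, where that of all genes was −0.16. All 10 fitted changes were above 0 in somas and 9 of 10 were in neurites, where Egr3 also turned below 0 when total counts replaced TMM scaling. That scaling moved the split of all calls in neurites from 1312 higher and 772 lower to 481 and 538. The MG132 libraries lay wholly above the Ctrl libraries for 6 members in somas (Fos, Fosl2, Jun, Junb, Jund and Egr1), a separation seen for 23.2% of all tested genes, and for 4 in neurites (Fos, Fosl2, Jun and Egr1), against 20.4%.

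**Figure D2:**
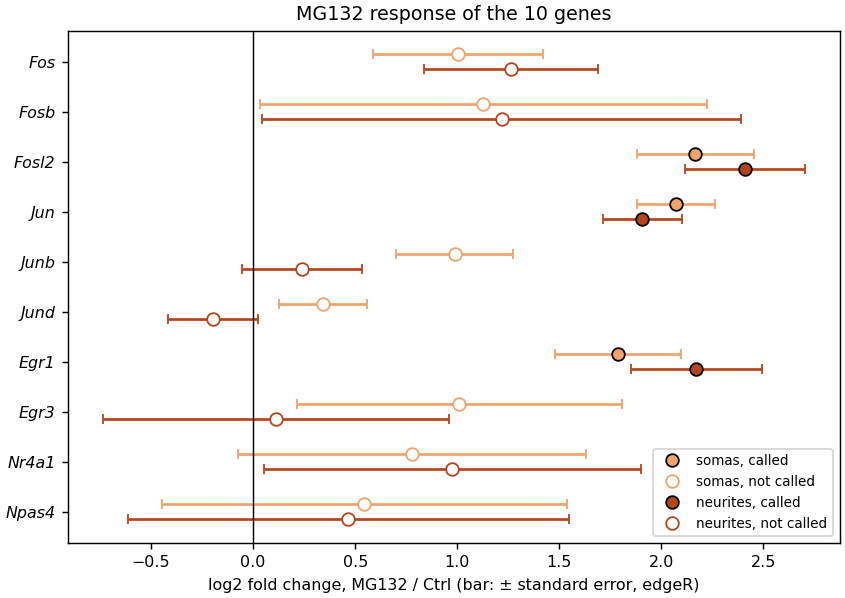
Fitted log2 fold change of MG132 against Ctrl (horizontal axis; bar, ± 1 standard error from edgeR, 3 against 3 libraries) for each gene in somas (light) and neurites (dark). Filled points passed adjusted p under 0.01 and 1.7-fold. Fosl2, Jun and Egr1 are filled in both fractions at 1.79 to 2.41, and the bars of Fosb, Egr3, Nr4a1 and Npas4 are the widest.

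Fosl2 encodes FRA2, a FOS protein without the strong activation domain of FOS itself (Entrez 14284, chr5:32136472-32157840 on GRCm38, plus strand). In Ctrl somas it was at 20.7, 56.3 and 36.6 CPM in replicates 1, 2 and 3, and in MG132 somas at 180.2, 176 and 151 CPM. In neurites the Ctrl values were 21.7, 35.1 and 28.9 CPM and the MG132 values 138, 148 and 172 CPM. The lowest MG132 library was far above the highest Ctrl library in both fractions. The log2 fold change was 2.16 ± 0.29 (SE) in somas, or 4.48-fold (edgeR adjusted p = 9.81e-05), and 2.41 ± 0.29 in neurites, or 5.31-fold (edgeR adjusted p = 3.78e-05). These calls held in each of the 16 alternative fits made per fraction.

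Fos, the founding AP-1 gene (Entrez 14281, chr12:85473890-85477274, plus strand), was at 12.8, 32.9 and 25.2 CPM in Ctrl somas and at 41.6, 46.4 and 53.2 CPM in MG132 somas. Its neurite values were 6.09, 26.2 and 11.3 CPM in Ctrl and 29.0, 47.6 and 30.2 CPM in MG132. The groups did not overlap in either fraction, and replicate 2 was the highest Ctrl library in both. The change was 1.001 ± 0.42 on the log2 scale in somas (edgeR adjusted p = 0.0879) and 1.26 ± 0.43 in neurites (edgeR adjusted p = 0.0399), short of the threshold. With the replicate number as a block, Fos rose by 1.13 in somas (edgeR adjusted p = 0.00140) and by 1.37 in neurites (edgeR adjusted p = 4.07e-04). Leaving out Ctrl neurites replicate 2 gave 2.02 in neurites (edgeR adjusted p = 0.00322), also past the threshold. So did a fit with no filter on counts, at 1.40 in neurites (edgeR adjusted p = 0.00106).

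Fosb, whose spliced product ΔFOSB is a long-lived AP-1 subunit (Entrez 14282, chr7:19302696-19310118, minus strand), was low throughout. It was at 0.553, 6.88 and 0.331 CPM in Ctrl somas and at 8.97, 6.15 and 1.80 CPM in MG132 somas. In Ctrl neurites it was at 0, 3.02 and 0.168 CPM, the 0 counts of replicate 1 allowing up to 0.794 CPM at a floor of 3 counts (counting error only), and in MG132 neurites at 3.88, 2.49 and 2.13 CPM. Replicate 2 of both Ctrl groups was within or above the MG132 range. The log2 fold changes of 1.13 ± 1.10 in somas (edgeR adjusted p = 0.480) and 1.22 ± 1.17 in neurites (edgeR adjusted p = 0.471) were about as large as their standard errors. With the replicate number as a block, Fosb changed by 1.90 ± 0.90 in somas (edgeR adjusted p = 0.105). In neurites its blocked change was 2.13 ± 1.01 (edgeR adjusted p = 0.106), and neither was called. Without Ctrl somas replicate 2 the change in somas was 3.62, and it was not called.

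Jun encodes the JUN subunit of AP-1, whose activity is raised by JNK phosphorylation (Entrez 16476, chr4:95049036-95052222, minus strand). Its level in Ctrl somas was 51.8, 50.5 and 51.5 CPM, the tightest triplet of any member, and in MG132 somas 205, 198 and 244.1 CPM. In neurites it was at 30.2, 41.0 and 48.6 CPM in Ctrl and at 136, 178 and 136 CPM in MG132. No MG132 library came near a Ctrl library. Jun rose by 2.07 ± 0.19 on the log2 scale in somas, or 4.204-fold (edgeR adjusted p = 6.11e-06), and by 1.91 ± 0.19 in neurites, or 3.75-fold (edgeR adjusted p = 9.48e-06). Both calls held in each of the 16 alternative fits made per fraction. The antisense gene Junos overlaps Jun by 689 bases and shares 5.07% of its 75-base windows, and reads were counted at default parameters, which do not use strand, so reads of the shared stretch cannot be told apart.

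Junb, a JUN protein that can restrain JUN at some promoters (Entrez 16477, chr8:84976909-84978748, minus strand), was at 8.91, 12.5 and 17.9 CPM in Ctrl somas and at 24.4, 24.6 and 28.5 CPM in MG132 somas. In neurites it was at 8.20, 10.1 and 14.3 CPM in Ctrl and at 12.8, 12.1 and 13.8 CPM in MG132. The groups were apart in somas and overlapped in neurites. The change in somas was 0.99 ± 0.29 on the log2 scale (edgeR adjusted p = 0.0185), short of the threshold, and with the replicate number as a block Junb rose by 1.02 (edgeR adjusted p = 0.00308). DESeq2 also placed it past the threshold, at 0.93 (adjusted p = 0.00886), as did leaving out Ctrl somas replicate 3, at 1.28 (edgeR adjusted p = 0.00899). In neurites the change was 0.24 ± 0.29 (edgeR adjusted p = 0.582). Junb and Prdx2 overlap by 351 bases on opposite strands but share no 75-base window.

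Jund, the JUN gene usually expressed at a steady level (Entrez 16478, chr8:70697739-70700616, plus strand), was at 20.6, 19.5 and 21.1 CPM in Ctrl somas and at 25.6, 28.2 and 23.9 CPM in MG132 somas. In neurites it was at 25.7, 20.4 and 28.3 CPM in Ctrl and at 17.8, 20.5 and 26.5 CPM in MG132. The soma groups did not overlap but differed little, by 0.34 ± 0.22 on the log2 scale (edgeR adjusted p = 0.266), and the neurite groups overlapped, at −0.19 ± 0.22 (edgeR adjusted p = 0.548). Its counts are uncertain because the antisense gene Gm11175 covers 919 bases of Jund and shares 45.9% of its 75-base windows.

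Egr1 encodes a zinc finger factor used as a marker of synaptic plasticity (Entrez 13653, chromosome 18, 34861207 to 34864956). Its level was 19.0, 33.9 and 15.3 CPM in Ctrl somas and 83.1, 74.2 and 77.8 CPM in MG132 somas. In neurites it was 15.9, 18.2 and 9.59 CPM in Ctrl and 54.5, 88.9 and 53.1 CPM in MG132. The groups were fully apart in both fractions, and the MG132 somas libraries were close together. Egr1 rose by 1.79 ± 0.31 on the log2 scale in somas, or 3.45-fold (edgeR adjusted p = 6.76e-04), and by 2.17 ± 0.32 in neurites, or 4.51-fold (edgeR adjusted p = 1.74e-04). The soma call was lost when all 4 libraries of replicate 1 were left out, at 1.63 (edgeR adjusted p = 0.0271).

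Egr3, an EGR gene needed for muscle spindle development and linked to memory (Entrez 13655, chr14:70077317-70082613), was low throughout. It was at 2.21, 1.55 and 1.88 CPM in Ctrl somas, at 7.21, 1.39 and 2.71 CPM in MG132 somas, at 1.06, 3.24 and 0.504 CPM in Ctrl neurites and at 3.19, 0.859 and 1.60 CPM in MG132 neurites. The groups overlapped in both fractions, and replicate 1 alone was high in MG132 somas. The log2 fold change was 1.01 ± 0.80 in somas (edgeR adjusted p = 0.378) and 0.11 ± 0.85 in neurites (edgeR adjusted p = 0.935), and the sign in neurites turned under several alternatives. With the replicate number as a block, Egr3 changed by 0.85 ± 0.81 in somas (edgeR adjusted p = 0.442). In neurites its blocked change was −0.05 ± 0.87 (edgeR adjusted p = 0.972). Without MG132 somas replicate 1 the change in somas was 0.14.

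Nr4a1 and Npas4 both varied widely between replicates of a group. Nr4a1 (Entrez 15370, chr15:101253902-101274795, plus strand) was at 2.76, 17.2 and 0.441 CPM in Ctrl somas and at 12.6, 16.9 and 5.74 CPM in MG132 somas. In neurites it was at 0.529, 4.03 and 2.35 CPM in Ctrl and at 6.16, 5.79 and 2.49 CPM in MG132. The highest Nr4a1 library of all 12 was a Ctrl library. The log2 fold change was 0.78 ± 0.85 in somas (edgeR adjusted p = 0.539) and 0.97 ± 0.92 in neurites (edgeR adjusted p = 0.462). With the replicate number as a block, Nr4a1 changed by 1.37 ± 0.61 in somas (edgeR adjusted p = 0.0808). In neurites its blocked change was 1.03 ± 0.69 (edgeR adjusted p = 0.265), and neither was called.

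Npas4 (Entrez 225872, chr19:4984353-5003439, minus strand) was at 2.21, 20.4 and 0.331 CPM in Ctrl somas, a span of 61.7-fold from 3 counts in replicate 3 to 184 counts in replicate 2. It was at 11.6, 18.6 and 3.65 CPM in MG132 somas, at 1.06, 4.81 and 1.51 CPM in Ctrl neurites and at 5.70, 4.39 and 0.710 CPM in MG132 neurites. The groups overlapped in both fractions. The log2 fold change was 0.55 ± 0.99 in somas (edgeR adjusted p = 0.726) and 0.47 ± 1.08 in neurites (edgeR adjusted p = 0.784). With the replicate number as a block, Npas4 changed by 1.30 ± 0.61 in somas (edgeR adjusted p = 0.103). In neurites its blocked change was 0.48 ± 0.73 (edgeR adjusted p = 0.647), and neither was called. Leaving out Ctrl somas replicate 2 moved the change in somas to 3.06 for Npas4 (edgeR adjusted p = 0.0450) and to 2.80 for Nr4a1 (edgeR adjusted p = 0.0292), and leaving out MG132 somas replicate 2 moved it to −0.01 for Npas4.

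The spread between replicates divided the members. The biological coefficient of variation estimated by edgeR over the 12 libraries was 18.1% for Jun, 19.7% for Jund, 24.9% for Junb, 25.0% for Fosl2, 26.9% for Egr1 and 36.2% for Fos, with a median of 30.0% over all tested genes. It was 61.9% for Egr3, 72.5% for Nr4a1, 83.8% for Npas4 and 91.0% for Fosb. Fos, Fosb, Fosl2, Egr1, Nr4a1 and Npas4, or 6 of the 10 genes, were highest in replicate 2 in both Ctrl groups. The share of all tested genes with this pattern was not computed, so it cannot be called a trait of these genes. Replicate numbers were shared across the groups, and the ratio within a number also set replicate 2 apart for some members. For Npas4 the log2 ratio of MG132 to Ctrl somas was 2.29, −0.13 and 2.87 in replicates 1, 2 and 3, for Nr4a1 it was 2.11, −0.03 and 3.22, and for Fosb it was 3.62, −0.16 and 1.93. Replicate 2 was thus the pair without a rise for these 3 genes, and also for Egr3, at 1.62, −0.14 and 0.49. The replicate 3 ratios of Npas4, Nr4a1 and Fosb rest on 3, 4 and 3 counts in Ctrl somas. For Jun the same ratios were 1.98, 1.97 and 2.24, and for Egr1 they were 2.12, 1.12 and 2.33. In neurites the Npas4 ratios were 2.24, −0.13 and −0.92, and the Egr3 ratios 1.44, −1.71 and 1.36, so that neither kept a sign. These ratios rest on few reads. Npas4 had 4 to 43 counts in Ctrl and 4 to 97 in MG132 neurites, and Egr3 had 3 to 29 and 9 to 19.

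**Figure D3:**
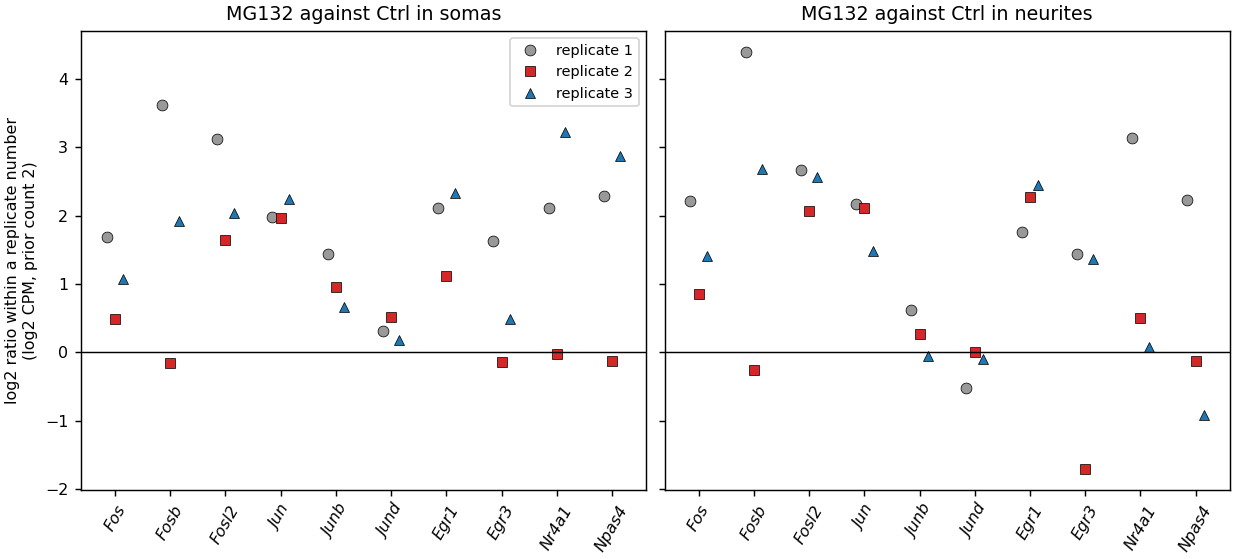
Log2 ratio of MG132 to Ctrl (vertical axis; log2 CPM with a prior count of 2) within each replicate number for the 10 genes (horizontal axis) in somas (left) and neurites (right). Circles, squares and triangles are replicates 1, 2 and 3. The 3 points of Jun lie between 1.48 and 2.24 in both panels, whereas those of Npas4 and Nr4a1 in somas run from −0.13 and −0.03 in replicate 2 to 2.87 and 3.22 in replicate 3.

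Levels per length allow the members of a family to be summed within a library. The lengths join all annotated exons of a gene, 9680 bases for Fosl2 and 2352 for Fos. Their longest transcripts have 6537 and 2108 bases, so the shares of different genes depend on the length used. The FOS family, summed over Fos, Fosb, Fosl1 and Fosl2, was 7.65, 20.9 and 14.5 CPM per kb of exon in Ctrl somas and 40.0, 41.0 and 40.1 CPM per kb in MG132 somas. The share of Fosl2 in that sum was 27.2% ± 1.04 (SD, n = 3) in Ctrl somas and 43.3% ± 3.92 in MG132 somas, and that of Fos was 70.5% ± 3.36 and 49.6% ± 6.19. The shares of Fosl2 did not overlap between these groups. In neurites the Fosl2 share was 36.2% ± 11.5 in Ctrl and 49.9% ± 8.35 in MG132, and the groups overlapped. In the JUN family Jun held 47.4% ± 2.97 of the sum in Ctrl somas and 71.5% ± 2.46 in MG132 somas, and 38.9% ± 5.25 and 71.5% ± 5.09 in neurites. The Jun shares of single libraries ran from 44.2% to 50.05% in Ctrl somas and from 69.2% to 74.1% in MG132 somas, and from 33.3% to 43.7% and from 66.1% to 76.1% in neurites, without overlap. Jund held 36.02% of the JUN sum in Ctrl somas and 16.6% in MG132 somas, and 46.6% and 19.8% in neurites, while its own level did not pass the test. With 3 libraries a group an exact permutation test cannot give a two-sided p under 0.10, so these shares are given without a test.

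**Figure D4:**
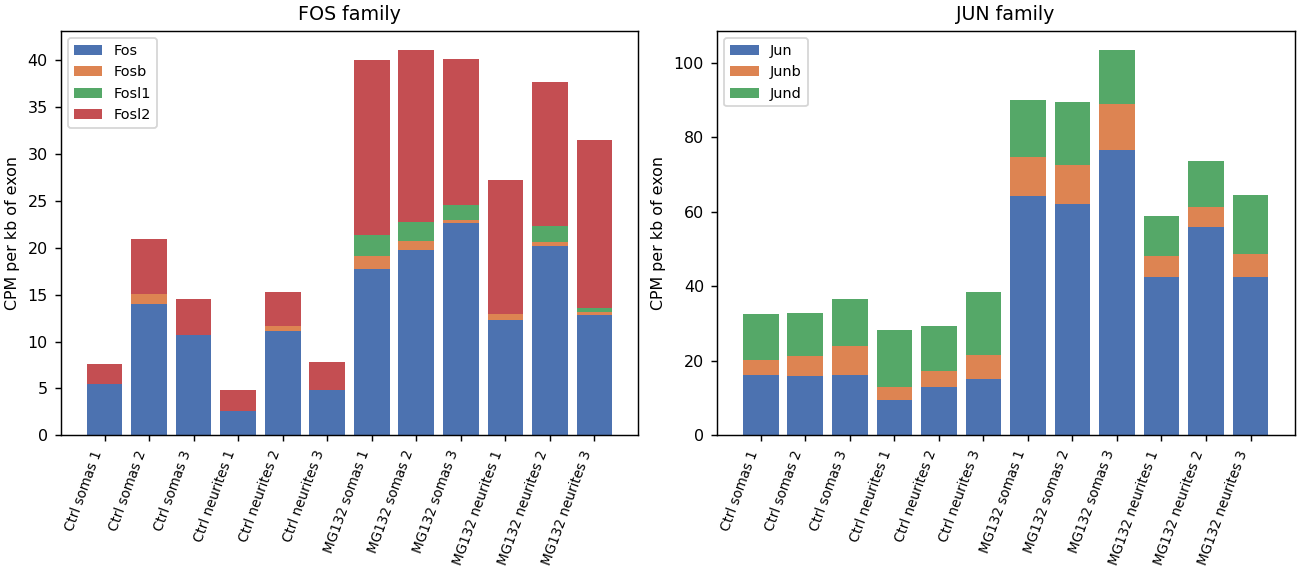
Summed level of the FOS family (left) and JUN family (right) in each of the 12 libraries, in CPM per kb of exon (vertical axis, linear from 0), split by gene. Bars are single libraries. Fosl2 makes up 39.0% to 56.7% of the FOS bar in MG132 libraries and Jun 66.1% to 76.1% of the JUN bar.

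Of 5 relatives of these families that are not in the set, 4 were tested. Fosl1, which encodes FRA1, had 0 counts in all 6 Ctrl libraries and 49, 21 and 78 counts in MG132 somas. It rose at least 13.7-fold in somas against a floor of 3 counts per Ctrl library (edgeR adjusted p = 0.00608). In MG132 neurites it had 0, 77 and 5 counts, at least 2.67-fold above the floor in the mean, and was not called (edgeR adjusted p = 0.0274). Egr2, Nr4a2 and Nr4a3 were not called in any comparison, and Egr4 did not pass the filter. The median log2 fold change of the 4 was 1.31 in somas and 1.01 in neurites, fitted with Fosl1 at a value that depends on the prior count.

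Neurites were compared with somas within each treatment to ask where the mRNAs were found. No member was called higher or lower in neurites than in somas, in Ctrl or in MG132. Of all tested genes 6.15% were called higher and 1.28% lower in Ctrl neurites, and 6.92% higher and 2.08% lower in MG132 neurites. With total counts in place of TMM scaling the median ratio of all genes moved from −0.04 to −0.70 in Ctrl and from −0.08 to −0.86 in MG132, and the calls turned from 872 higher and 181 lower to 179 and 938 in Ctrl, and from 982 and 295 to 138 and 2118 in MG132, so the ratios are read relative to the median gene. These comparisons use the same libraries as those of MG132 with Ctrl. Most fitted ratios of the members lay on the soma side. Their median log2 ratio of neurites to somas was −0.51 in Ctrl and −0.76 in MG132, where those of all tested genes were −0.04 and −0.08. In Ctrl 9 of 10 fitted ratios were below 0, the exception being Jund at 0.28 ± 0.22, which became −0.40 when total counts replaced TMM scaling. In MG132 all 10 were below 0.

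Junb had the clearest difference between fractions. In MG132 its neurite libraries (12.8, 12.1 and 13.8 CPM) were all below its soma libraries (24.4, 24.6 and 28.5 CPM), at a log2 ratio of −1.01 ± 0.29 (edgeR adjusted p = 0.0247), short of the threshold. With the replicate number as a block the ratio was −1.003 (edgeR adjusted p = 0.00547) and Junb was called lower in neurites, 1 of 10 members against 5.33% of all tested genes. In Ctrl the Junb ratio was −0.26 ± 0.29 (edgeR adjusted p = 0.628), with overlapping groups.

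Jun was lower in all neurite libraries than in all soma libraries in both treatments. Its ratio was −0.35 ± 0.19 in Ctrl (edgeR adjusted p = 0.247) and −0.52 ± 0.19 in MG132 (edgeR adjusted p = 0.0669), neither past the threshold. This complete separation, found for Jun in Ctrl and for Jun and Junb in MG132, was seen in the same direction for 15.9% and 17.9% of all tested genes. The lowest ratios in the fit without pairing were those of Npas4, at −1.54 ± 1.06 in Ctrl and −1.61 ± 1.04 in MG132, and of Nr4a1, at −1.45 ± 0.91 and −1.26 ± 0.87, none of them called. With the replicate block Npas4 was at −0.89 ± 0.68 in Ctrl (edgeR adjusted p = 0.393). In MG132 its blocked ratio was −1.71 ± 0.64 (edgeR adjusted p = 0.0503), again not called. For Nr4a1 the blocked ratios were −0.93 ± 0.68 in Ctrl and −1.28 ± 0.61 in MG132. Without Ctrl somas replicate 2 the Ctrl ratio turned to 0.87 for Npas4, 0.47 for Nr4a1 and 1.29 for Fosb. For Fosl2 the ratio was −0.39 ± 0.28 in Ctrl and −0.15 ± 0.27 in MG132, and the induced mRNA was found in neurites at 153 ± 17.5 CPM and in somas at 169 ± 15.6 CPM (SD, n = 3).

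Whether the response to MG132 differed between neurites and somas was tested as an interaction in the same model. No member passed, and none of the 14185 genes did at an adjusted p under 0.01 (0% called in either direction), with a smallest edgeR adjusted p of 0.328. At an unadjusted p under 0.05, 474 genes had a higher and 526 a lower response in neurites, while DESeq2 called 21 and 8 genes and edgeR with the replicate block 14 and 7, with no member among them. The member nearest to a difference was Junb, whose response was lower in neurites by a log2 value of −0.75 ± 0.41 (edgeR adjusted p = 0.769), followed by Jund at −0.54 ± 0.31 (edgeR adjusted p = 0.784). For the 3 genes called in both fractions the differences were 0.24 ± 0.39 for Fosl2, −0.17 ± 0.27 for Jun and 0.39 ± 0.43 for Egr1. At these standard errors a small difference between the fractions could not be detected, and similar responses are not shown.

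Genes that work with or act on these factors were counted in 5 lists. Each count is set against the shares of all tested genes, which under MG132 were 9.00% higher and 5.58% lower in somas and 9.25% and 5.44% in neurites. With the replicate block these shares were 11.7% and 9.76% in somas and 11.8% and 9.75% in neurites. In neurites against somas they were 6.15% higher and 1.28% lower in Ctrl, and 6.92% and 2.08% in MG132. No list was tested against other genes. Among 9 tested dimer partners of AP-1 (the ATF and MAF families and Jdp2), 4 rose (44.4%) and 2 fell (22.2%) in somas. In neurites 3 rose (33.3%) and 2 fell (22.2%). The median log2 fold changes were 0.90 in somas and 0.71 in neurites. Atf3, a stress-induced partner of JUN, went from 13.3 ± 3.49 to 404 ± 111 CPM in somas (SD, n = 3; log2 fold change 4.94 ± 0.33, edgeR adjusted p = 3.02e-07) and from 19.0 ± 8.48 to 361 ± 43.2 CPM in neurites (4.25 ± 0.32, edgeR adjusted p = 7.56e-07). The mRNAs of the small MAF genes Maff (2.41) and Mafk (1.94) rose in somas. Maf, which encodes a large MAF protein and is also expressed in microglia, fell by 2.28 on the log2 scale in both fractions. In neurites against somas 2 partners were higher and 0 lower in both treatments.

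Of 18 tested other early response genes 10 rose and 0 fell in somas, and 9 rose and 0 fell in neurites, with median log2 fold changes of 1.61 and 1.91. Atf3 and Maff stand in this list too. Gadd45b, a stress-response gene linked to DNA demethylation, rose by 3.85 ± 0.41 in somas and 5.18 ± 0.46 in neurites on the log2 scale (edgeR adjusted p = 1.81e-05 and 2.56e-06). Csrnp1, which encodes a cysteine- and serine-rich nuclear protein, rose by 3.14 and 3.03. Dusp1, the phosphatase that switches off JNK and p38, rose by 3.04 (edgeR adjusted p = 0.00119) and 2.60 (edgeR adjusted p = 0.00402). In neurites against somas 1 of the 18 was higher and 0 lower in Ctrl, and 1 higher and 1 lower in MG132. With the replicate block 14 of the 18 rose in somas.

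The SRF, CREB and MEF2 list holds factors that act at the promoters of early genes, with their cofactors. Of 20 tested, 1 rose, against 9.00% of all tested genes, and 0 fell in somas. In neurites 2 rose (10.0%, against 9.25%) and 2 fell (10.0%, against 5.44%), and the medians were 0.51 in somas and −0.26 in neurites. Crebbp, the CREB-binding acetyltransferase, rose by 1.25 in somas and 1.53 in neurites. Mef2a rose by 0.80 in neurites, where Mef2c fell by 1.23 and the SRF partner Elk3 fell by 2.06. In neurites against somas 2 were higher and 0 lower in Ctrl, and 1 higher and 1 lower in MG132. With the replicate block 3 rose and 1 fell in somas.

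Of 31 tested MAP kinase pathway genes 4 rose (12.9%) and 0 fell in somas, and 3 rose and 3 fell (9.68% each) in neurites, with medians of 0.36 and −0.02. The shares that rose were close to those of all tested genes, 9.00% in somas and 9.25% in neurites. Mapk8, which encodes JNK1, rose by 1.25 in somas (edgeR adjusted p = 0.00109) and by 1.28 in neurites (edgeR adjusted p = 9.81e-04). Map2k3, an activator of p38, rose by 1.44 in somas. The kinases Map3k1 and Rps6ka1 fell by 1.61 and 2.03 in neurites. In neurites against somas 2 were higher and 0 lower in Ctrl, and 2 higher and 2 lower in MG132. The blocked fit left 4 higher in somas and called 3 lower there.

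Of 24 tested genes for feedback on, and decay of, early gene products 7 rose (29.2%) and 1 fell (4.17%) in somas, and 5 rose (20.8%) and 1 fell (4.17%) in neurites, with medians of 0.56 and 0.52. The shares that fell, 1 gene in each fraction, were close to those of all tested genes, 5.58% and 5.44%. Besides Dusp1, the genes that rose included the phosphatase Dusp10, by 2.58 and 2.10. Spry4, an inhibitor of receptor tyrosine kinase signalling, rose by 2.03 and 2.53. Dusp8 rose by 1.68 in somas. In neurites against somas 3 were higher and 0 lower in both treatments. With the replicate block 10 rose in somas and 9 in neurites.

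Some markers of other cell types fell with MG132. Of the 8 astrocyte markers 5 fell in somas and 3 in neurites, and their summed levels are given above. The 8 oligodendrocyte markers had summed levels that in somas were 1458 to 6375 CPM with DMSO and 505 to 5964 CPM with MG132, and in neurites 5014 to 22009 and 2864 to 15982 CPM, and 3 fell in each fraction. For the 8 microglia markers the sums in somas were 574 to 736 CPM with DMSO and 155 to 285.9 CPM with MG132, and in neurites 626 to 1184 and 102 to 236.3 CPM, and 3 fell in somas and 4 in neurites. For the 8 vascular and fibroblast markers the sums in somas were 203 to 269 CPM with DMSO and 73.4 to 97.2 CPM with MG132, and in neurites 53.6 to 113 and 34.8 to 53.2 CPM. Of the 6 tested, 2 fell in somas and 0 in neurites, and Cldn5 had 0 counts outside Ctrl somas. Of the 8 neuron markers 0 fell in somas and 1, Stmn2, fell in neurites, and it is named after its value was seen. With the replicate block more markers fell, where 9.76% of all tested genes fell in somas and 9.75% in neurites. The blocked counts were 6 and 5 of 8 for astrocytes in somas and neurites, 6 and 4 of 8 for oligodendrocytes, 7 and 7 of 8 for microglia, 5 and 2 of 6 for vascular cells and fibroblasts, and 0 and 2 of 8 for neurons, where Syp joined Stmn2 in neurites. Immediate early genes are expressed in glia as well as in neurons, and the part of these shifts in the results for the 10 genes was not tested.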

How the data were processed

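The authors measured polyA-selected RNA in 12 libraries and deposited raw counts of reads per gene, whole numbers for 27179 Entrez genes. Per the labels and the methods, reads were trimmed with Trimmomatic 0.38.0, aligned to mm10 with STAR and counted with featureCounts 2.0.1 at default parameters on a Galaxy server, which lists DESeq2 2.11.40.7 for the authors' tests. The default of featureCounts does not use strand. The methods name a paired-end run whose trimmed reads were aligned as single-end reads, and the labels name single-end sequencing. Totals were 4247610 to 22166347 counts per library, so a member at a few CPM rests on few reads, down to 0 to 4 counts in some libraries.

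Symbols were matched to 25275 genes (93.0%) through RefSeq. The deposited counts were analysed with edgeR 4.0.16 and limma 3.58.1 in R 4.3.3: genes were kept by filterByExpr (14185), scaled by TMM (factors 0.567 to 1.44) and fitted by the quasi-likelihood method with 4 group means over all 12 libraries. Benjamini-Hochberg adjustment ran over all tested genes, and genes were called at an adjusted p below 0.01 and a change over 1.7-fold, with no fold needed for the interaction. Standard errors were taken as the absolute log2 change over the root of its F statistic. The procedure was also run on simulated data without a replicate effect, which cannot show how it performs on paired libraries. DESeq2 1.42.0, other scalings and filters, other thresholds, the compared groups alone, the replicate block and the omission of each library were alternatives. Levels per kb used the joined length of all annotated exons of a gene in GENCODE M21, not the length of the expressed transcript.

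The labels do not say that replicates were separate cultures, so p-values measure the spread between these samples. Replicate numbers pair the samples: over all tested genes the deviations from group means of same-numbered samples correlated at 0.165 to 0.248 in the 4 pairs of groups compared. The main fit did not use this pairing, so its standard errors, adjusted p-values and interaction test leave it out. The main fit called 3 members higher in somas and 3 in neurites. With the replicate block 5 were called higher in somas, against 11.7% of all tested genes, and 4 in neurites, against 11.8%. The members, the gene lists (family relatives, AP-1 partners, other early genes, SRF, CREB and MEF2 regulators, MAP kinases, feedback and decay, markers of 5 cell types) and the tests were chosen with earlier results of these data known. All members are named, and from each list at most the 4 called genes with the largest change under MG132. For Fos, Jun, Egr1 and Npas4, the 3 genes with the most similar pattern and a mean of at least 5 CPM are named.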

Additional observations from a re-analysis of the deposited data

How the results depend on the processing

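Of 824 values of single members recomputed under the alternatives, 764 kept their direction and side of the threshold, 11 newly passed it, 1 no longer did and 48 changed sign, none of them a called value. The calls of Fosl2 and Jun under MG132 held in every alternative run, and that of Egr1 was lost in somas only without all 4 libraries of replicate 1, an alternative chosen after seeing the data. With the replicate block, members called higher in somas went from 3 to 5 (Fos and Junb added), and members called lower in MG132 neurites than in somas went from 0 to 1 (Junb). The latter count was 2 with total counts (Jun and Junb), where 2118 of the 14185 tested genes were called lower. It was 1 with DESeq2, where 614 of the 14185 genes were. At an adjusted p under 0.05 without a fold threshold it was 1, and the share of all genes was not computed there. The block also added Fos in neurites and changed no other call of a member. Leaving out 1 library gave 3 to 4 members higher under MG132 in each fraction, and the shares of all genes were not computed for these fits. DESeq2 moved the calls over all genes in somas from 1276 higher and 792 lower to 1451 and 1476. Requiring 10 or more counts in all libraries left 9597 genes and 6 members. With only the compared groups in the fit no interaction value was computed. Signs of low or unchanged members turned as follows, and the cause was not tested. For Egr3 in neurites under MG132 the log2 fold change was −0.19 with total counts, −0.049 with the block, −0.68 without replicate 1 and −0.073 without replicate 3 in all groups, and −0.48 to 1.24 over single omissions. For Npas4 it was −0.21 in neurites without replicate 1 in all groups, and −0.0061 to 3.06 in somas over single omissions. For Jund in neurites it was −0.32 to 0.029. In Ctrl neurites against somas, Jund was at −0.40 with total counts and Egr3 at 0.16 without replicate 1 and 0.16 without replicate 3 in all groups, and single omissions gave −1.31 to 0.17 for Egr3, −4.51 to 1.29 for Fosb, −2.12 to 0.47 for Nr4a1 and −2.52 to 0.87 for Npas4. The interaction was −0.13 with total counts and −0.081 without replicate 3 for Fosb, 0.25 without replicate 3 for Jun, −0.13 and 0.38 without replicate 2 for Egr1 and Egr3, −0.35 with the block and −0.97 without replicate 2 for Nr4a1, and 0.031 with no filter and 0.32 without replicate 3 for Npas4. Single omissions put it at −0.077 to 1.02 for Fos, −2.26 to 3.52 for Fosb, −0.050 to 0.64 for Fosl2, −0.33 to 0.11 for Jun, −1.50 to 0.23 for Egr3, −1.70 to 0.87 for Nr4a1 and −2.47 to 0.91 for Npas4.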

Other observations

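The genes outside the set whose log2 CPM followed a member most closely over the 12 libraries are given as a description. The libraries share treatment, fraction and replicate number, which alone give high correlations, and nothing about shared function is drawn from them. For Jun they were Csrnp1 (Pearson r = 0.983), Scyl2 (0.983) and Zfp655 (0.982). Csrnp1 was at 2.21, 2.66 and 2.43 CPM in Ctrl somas and at 21.6, 21.0 and 21.8 CPM in MG132 somas. For Egr1 they were Plk2 (0.979), a kinase of synaptic scaling, Slc7a5 (0.974), a subunit of an amino acid transporter, and Hsf2 (0.973), a heat shock factor. For Fos they were Rasgef1b (0.959), Spry4 (0.958) and Zw10 (0.957).

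For Npas4 they were Nr4a2 (0.937), Rgs2 (0.894) and Aox1 (0.889). Nr4a2, an orphan nuclear receptor related to Nr4a1, was at 4.70, 18.4 and 4.08 CPM in Ctrl somas and at 20.8, 15.9 and 8.57 CPM in MG132 somas. Rgs2, a regulator of G protein signalling, was at 24.2, 40.8 and 15.2 CPM and at 37.8, 48.4 and 26.1 CPM. In Ctrl somas replicate 2 was the highest library for Npas4, Nr4a1, Nr4a2 and Rgs2. Nr4a2 and Rgs2 were picked by their correlation with Npas4 over these same libraries. A shared peak was therefore favoured by the choice and is not separate evidence.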
